A study of Mus musculus with 8 samples.

Results

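Collagen genes encode the chains that wind around one another into the collagen triple helix. They were chosen as the protein-coding genes of the count table whose symbol is Col, a number, a and a number, such as Col1a1. The rule found 44 of the 54532 genes in the table, 22046 of which are protein-coding. By the kind of structure their chains build, 11 were fibrillar, 6 belonged to the basement membrane network and 27 to other classes.

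The data were bulk RNA-seq read counts from 8 tumors of 4T1-FLuc, a mouse triple-negative breast cancer line that carries firefly luciferase. The cells were injected under the skin of female BALB/cJ mice aged 6 weeks, an immunocompetent host of the BALB/c background from which the line derives, and tumors were taken at the study endpoint. The 4 control mice received saline, which the treatment label calls PBS. The other 4 received mAb-DXd/IMQ, labelled HumCD276-Dxd/IMQ, in 5 intravenous courses of 16 mg/kg, 1 every 4 days, and their tumors are called treated tumors below. The agent is an antibody against CD276 that carries DXd, an inhibitor of TOP1, and IMQ, a TLR7 and TLR8 agonist of the imidazoquinoline kind. Tumor and host cells are both mouse cells, so reads from a collagen gene could not be assigned to either. The line is a single cell line, and only tumors present at the endpoint were sequenced. At that point the study reported a much smaller mean tumor volume with mAb-DXd/IMQ than with saline, and extensive cell death in treated tumors. The comparison did not account for tumor size, so size and treatment cannot be told apart in the levels below.

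Fibrillar collagens are secreted as procollagens, trimmed by proteases and packed into the cross-linked fibers of connective tissue. Type IV collagens instead form a sheet-like network in the basement membranes under epithelium and around vessels, and the remaining collagens decorate fibrils, anchor membranes, build fine filaments or span the cell membrane. In breast tumors, fibroblasts are the best-known makers of fibrillar collagen, and pericytes and endothelial cells are known makers of type IV collagen.

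Total counts in saline tumors 1 to 4 were 49398150, 45019927, 56388627 and 69582375. In treated tumors 1 to 4 they were 51625237, 46196237, 42965317 and 34591912. The groups overlapped in depth, with medians of 52893388.5 and 44580777 (exact permutation test, two-sided, p = 0.171). A floor of 3 counts corresponded to between 0.0439 and 0.0843 CPM, the count scaled to a TMM-adjusted library of 1e+06, and covers counting error only. Sequencing batches are not named in the labels, and values within batches could not be given.

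The labelled tissue was checked against its markers. All 5 tumor epithelium markers were found, and their summed level in saline tumors 1 to 4 was 2578, 1802, 2526 and 2199 CPM. In treated tumors 1 to 4 it was 3409, 2629, 2109 and 2072 CPM. Krt18 was the most abundant of them, with 28.1% of the sum, and Epcam was present in every tumor, at no less than 192.9 CPM. Markers of host tissue were also present, and their values stand below beside the collagen classes.

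Collagen genes took 0.589%, 0.677%, 1.06% and 1.07% of all counts in saline tumors 1 to 4. In treated tumors 1 to 4 they took 0.869%, 0.806%, 1.49% and 0.648%. The groups overlapped widely, with treated tumor 3 highest of the 8 and saline tumor 1 lowest. The saline mean was 0.849 ± 0.252% (SD, n = 4), and the treated mean was 0.952 ± 0.368% (SD, n = 4). In bulk samples, fewer cells of a type and less RNA per cell cannot be told apart, and this holds for every level below.

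Levels differed over a wide range within the family. Averaged over the 8 tumors, 15 of the 44 genes reached 100 CPM, 20 reached 10 CPM and 29 reached 1 CPM. Per kilobase of gene length, Col1a1 had the highest mean level at 386 CPM per kilobase, followed by Col1a2 at 108 and Col3a1 at 103 CPM per kilobase. Next on that scale came Col6a1 at 87.4 CPM per kilobase and Col4a1 at 68.6 CPM per kilobase. Col1a1 alone made up 35.8% of the summed collagen level per kilobase in saline tumors and 31.7% in treated tumors. The gene length in the file counts every annotated exon once, which for Col1a2 gave 12426 bases against 5348 in its longest transcript. Values on this scale therefore depend on which length is used.

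The filter on low counts kept 18511 genes for the test, among them 38 collagen genes, namely 11 fibrillar, 5 basement membrane and 22 other. The 6 left out were Col4a3 with 38 counts over the 8 tumors, Col22a1 with 22, Col9a2 with 23, Col9a1 with 14, Col26a1 with 5 and Col19a1 with 2. Of the 22 counts on Col22a1, 17 were in treated tumor 1, and of the 14 on Col9a1, 12 were in saline tumor 4. Without the filter 0 of the 44 collagen genes passed, which at so few counts does not exclude a difference. No fold is given for these genes.

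The comparison asks which collagen transcripts differ between tumors given mAb-DXd/IMQ and tumors given saline. With edgeR, at a false discovery rate (FDR) under 0.05 and a log2 fold change beyond 0.58 in either direction, 0 of the 38 tested collagen genes passed. Over all tested genes 197 of 18511 passed, or 1.06%, 101 of them higher and 96 lower. With DESeq2 the same thresholds passed 3 collagen genes, Col4a1, Col8a1 and Col28a1, among 787 of all tested genes, or 4.25%. At an unadjusted p under 0.05 in edgeR, 7 collagen genes were higher in treated tumors and 0 lower. The corresponding shares of all tested genes were 9.13% higher and 9.79% lower. These 7 were Col4a1, Col4a2, Col8a1, Col13a1, Col16a1, Col18a1 and Col28a1. The groups did not overlap for 3 collagen genes that were higher, Col4a1, Col4a2 and Col16a1, and for 0 that were lower, against 5.97% and 7.1% of all tested genes.

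The number of genes passing depended on single tumors. Over all tested genes it was 111 without saline tumor 2, 10 without saline tumor 3 and 11 without saline tumor 4. Without saline tumor 1 it was 203 of 18843, or 1.08%. It was 76 without treated tumor 2, 88 without treated tumor 3 and 12 without treated tumor 4. Among the collagens, 1 gene passed without treated tumor 1, namely Col4a2, among 190 of all 18930 tested genes or 1%, and 0 passed without any other single tumor.

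Of the 38 tested collagen genes, 27 had a higher and 11 a lower fitted level in treated tumors, with a median log2 fold change of 0.26. Over all tested genes, 9743 were higher and the median was 0.02. By class, 9 of 11 fibrillar genes were higher with a median of 0.39, 3 of 5 basement membrane genes with a median of 0.16, and 15 of 22 other genes with a median of 0.22. These directions rested in large part on treated tumor 3. Without it, 19 collagen genes were higher and 19 lower, and the medians were -0.07 for fibrillar, 0.39 for basement membrane and 0.02 for other collagens. Without saline tumor 1 the fibrillar median was 0.22. The basement membrane median covers 5 genes and is the value of Col4a5. It was 0.10 without saline tumor 2, 0.09 without saline tumor 3, 0.09 without treated tumor 1, 0.04 without treated tumor 2 and 0.08 without treated tumor 4. The same median was 0.0243 over 6 genes without a filter, 0.0769 with the replicate number as a block in the fit, 0.245 after correction for gene length, 0.238 after correction for gene length and GC content and -0.0209 without tumor 2 of both groups. With the block the median of other collagens was 0.133. The plot of log2 fold changes by class shows the 38 estimates with their intervals. The interval lay above 0 for 7 genes and below 0 for 0. These are the same 7 genes as those with an unadjusted p under 0.05 in edgeR, so the intervals add no further result. At that p, 9.13% of all tested genes were higher and 9.79% lower.

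**Figure D1:**
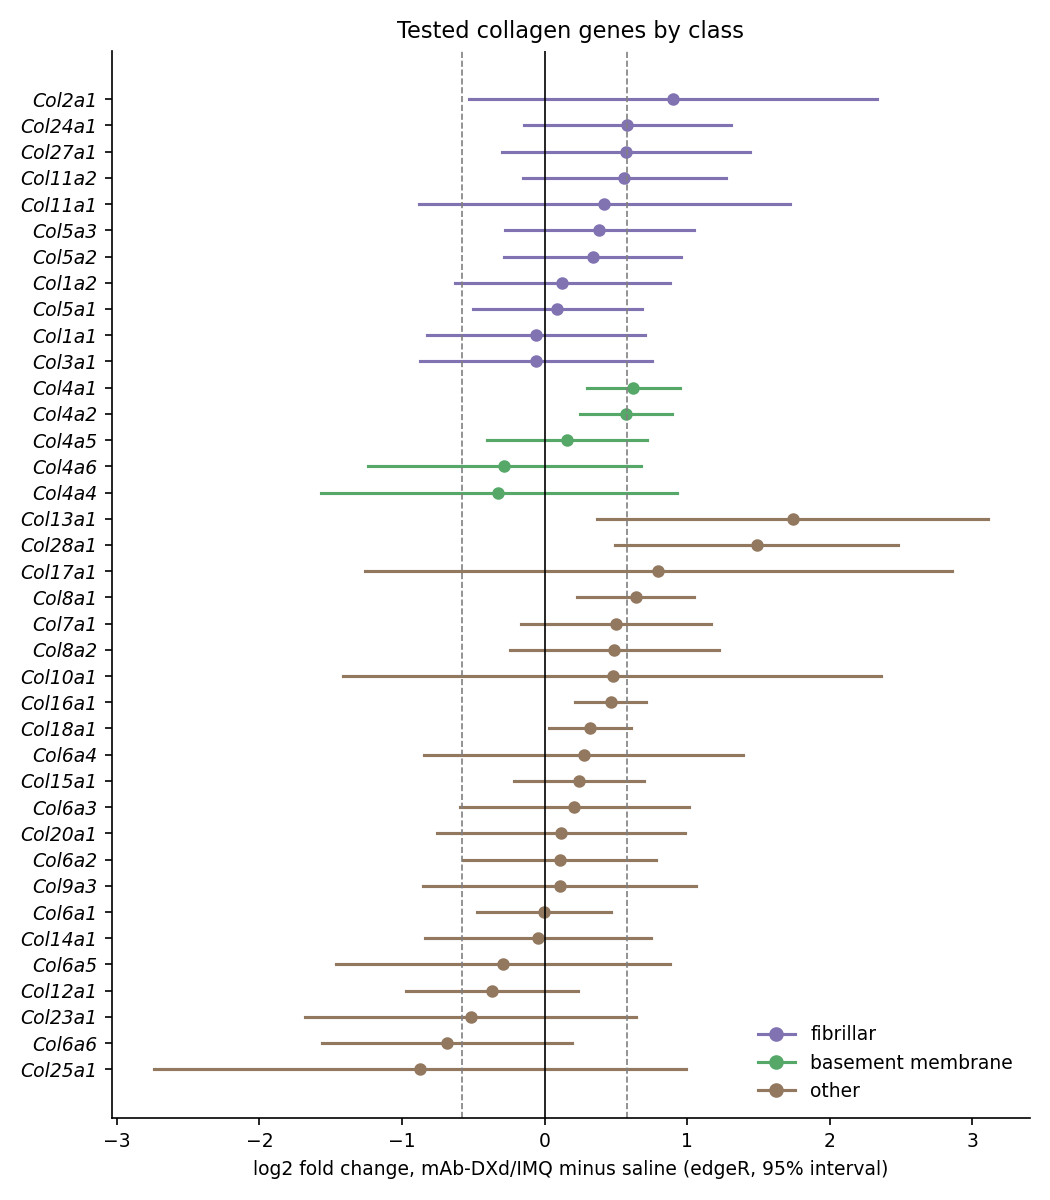
Log2 fold change (mAb-DXd/IMQ minus saline, x axis) of the 38 tested collagen genes (y axis), colored by class, with 95% intervals from edgeR and dashed lines at the fold change limit of 0.58 in both directions. The intervals of 7 genes lie above 0, among them Col4a1 at 0.62 and Col4a2 at 0.57, and every fibrillar interval spans 0. These 7 are the genes with an unadjusted p under 0.05 in edgeR, at which 9.13% of all tested genes were higher.

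Mouse-to-mouse spread was larger for collagens than for most genes. The median coefficient of variation over the tested collagens was 33.2% in saline tumors and 42.8% in treated tumors. Over all tested genes it was 15.7% and 20.9%. Among genes with a mean of at least 10 CPM, it was 23.4% and 39.8% for 20 collagens against 9.43% and 15.1% for 10291 genes. The coefficients of these 20 collagens in saline tumors ran from 10.1% to 53.7%.

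One tumor stood out for its collagen levels. Treated tumor 3 had the highest CPM of the 8 tumors for 22 of the 38 collagens, while it was highest for 17.7% of all tested genes. Within its own group it was highest for 29 of the 38, against 28.8% of all tested genes. Treated tumor 4 was highest of the 8 for 0 collagens, against 13.4% of all tested genes. In the heat map of tumors, the column of treated tumor 3 is high in most fibrillar and other collagens and low in Col4a5 and Col4a6.

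**Figure D2:**
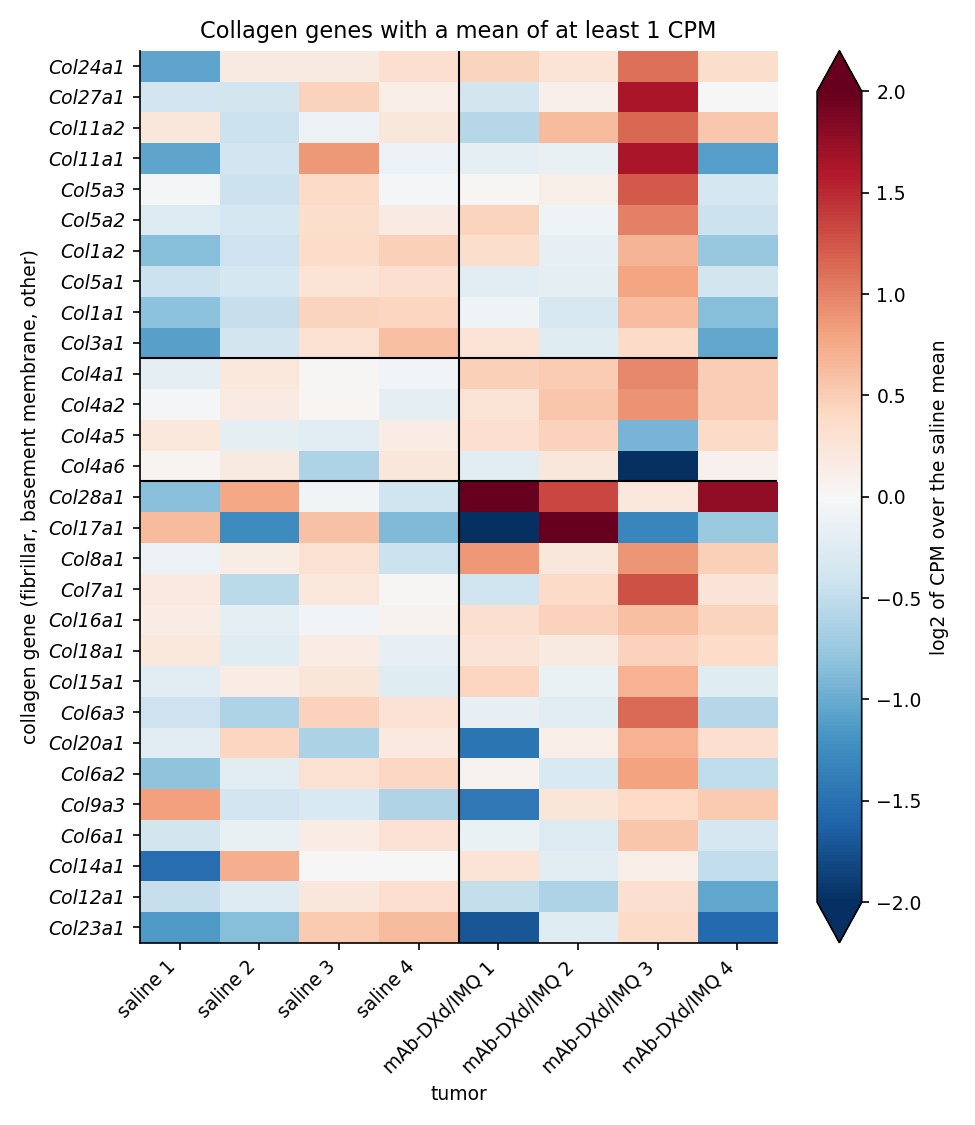
Level of each of the 29 collagen genes with a mean of at least 1 CPM (y axis, by class) in each of the 8 tumors (x axis), as log2 of CPM over the mean of the saline tumors, with colors ending at 2 in both directions. Treated tumor 3 is the highest of the 8 tumors for 22 of the 38 tested collagens, and saline tumors 1 and 2 are low for most fibrillar ones.

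The summed level of the 11 fibrillar collagens was 392.9, 502.8, 894.3 and 924.3 CPM per kilobase in saline tumors 1 to 4. In treated tumors 1 to 4 it was 716, 566.4, 1058 and 389.9 CPM per kilobase. The groups overlapped fully, with saline tumor 1 and treated tumor 4 close together at the low end and saline tumors 3 and 4 near treated tumor 3 at the high end. The means were 678.6 ± 270.4 (SD, n = 4) and 682.7 ± 283.7 CPM per kilobase (SD, n = 4), a ratio of 1.01. The ratio was 1.02 with the longest transcript as length and 1.02 with no length. Left-out tumors moved it between 0.821 and 1.15, the lowest without treated tumor 3.

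**Figure D3:**
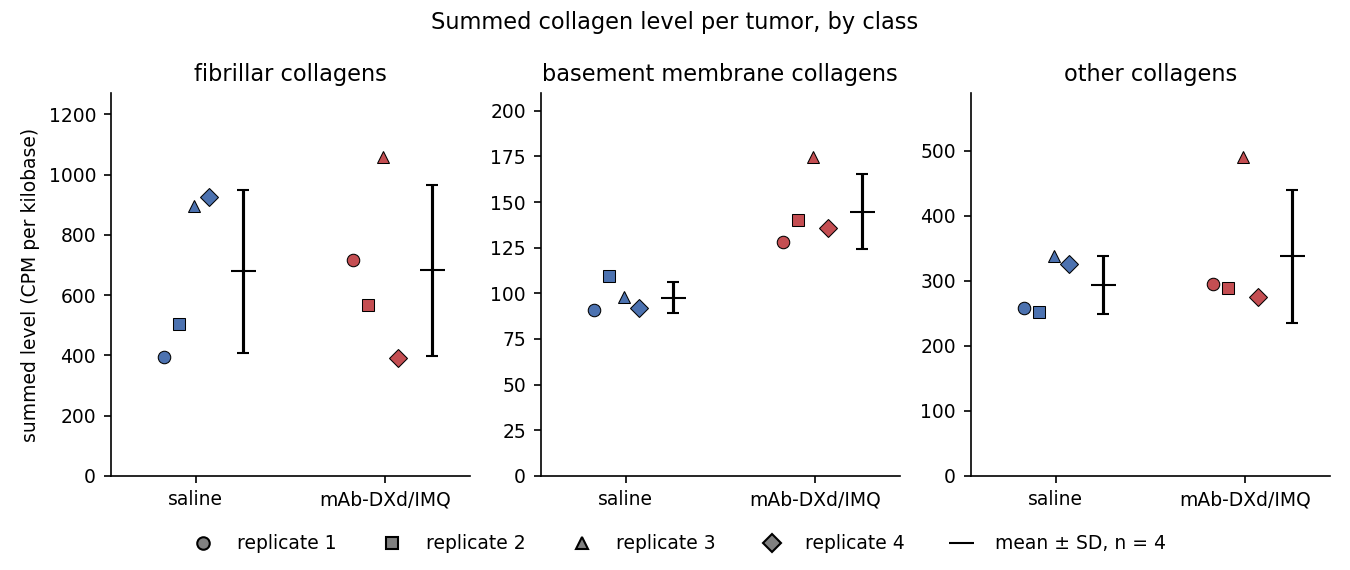
Summed level per tumor in CPM per kilobase (y axis) of fibrillar, basement membrane and other collagens in saline and treated tumors (x axis), with 1 symbol per replicate and the mean with its SD (n = 4) beside them. The basement membrane sums of 128 to 174.6 in treated tumors all lie above those of 90.93 to 109.4 in saline tumors, while the fibrillar and other sums overlap.

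Col1a1 (ENSMUSG00000001506, chromosome 11) encodes the chain present in 2 copies in type I collagen, the main fiber of connective tissue. Its level in saline tumors 1 to 4 was 1471, 1868, 3512 and 3488 CPM. In treated tumors 1 to 4 it was 2471, 2061, 3971 and 1431 CPM. Saline tumors 3 and 4 and treated tumor 3 were high, saline tumor 1 and treated tumor 4 were low, and the groups overlapped. Its fitted log2 fold change was -0.06 (SE 0.348, edgeR FDR 0.954), with a 95% interval from -0.82 to 0.71. Its sign was not stable, since the value was 0.12 without saline tumor 3, 0.13 without saline tumor 4, 0.02 without treated tumor 2 and 0.14 without treated tumor 4.

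Col1a2 (ENSMUSG00000029661, chromosome 6) encodes the partner chain of type I collagen. It had 708, 962, 1659 and 1790 CPM in saline tumors 1 to 4 and 1629, 1137, 2058 and 760 CPM in treated tumors 1 to 4. The tumors fell in nearly the same order as for Col1a1, and the groups overlapped. With edgeR its log2 fold change was 0.13 (SE 0.343, FDR 0.883), and it was -0.08 without saline tumor 1 and -0.12 without treated tumor 3. Counts on Col1a1 were 2.08, 1.94, 2.12 and 1.95 times those on Col1a2 in saline tumors. In treated tumors the ratio was 1.52, 1.81, 1.93 and 1.88. All 4 treated ratios lay below the lowest saline ratio, but treated tumor 3 at 1.93 nearly touched saline tumor 2 at 1.94. The means were 2.02 ± 0.0893 (SD, n = 4) and 1.79 ± 0.185 (SD, n = 4), with treated tumor 1 lowest at 1.52. Per kilobase of the longest transcript, the mean ratios were 1.82 and 1.61. No test was made of this ratio, which was singled out after its values were seen.

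Col3a1 (ENSMUSG00000026043, chromosome 1) encodes type III collagen, which joins type I in extensible tissue. Its levels were 483.5, 791.8, 1271 and 1561 CPM in saline tumors 1 to 4 and 1235, 866.3, 1344 and 499.5 CPM in treated tumors 1 to 4. Saline tumor 1 and treated tumor 4 were again the lowest, and saline tumor 4 was the highest. The estimate was a log2 fold change of -0.06 (SE 0.369, edgeR FDR 0.956), and it was 0.06 without saline tumor 3, 0.22 without saline tumor 4 and 0.17 without treated tumor 4.

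Type V and type XI collagens are minor fibrillar chains that start fibrils and set their width. Col5a1 had between 222.6 and 379.7 CPM in saline tumors and 259.9, 264.8, 520.8 and 232.5 CPM in treated tumors 1 to 4. Its log2 fold change was 0.09 (edgeR FDR 0.895), and it was -0.03 without saline tumor 1, -0.01 without saline tumor 2 and -0.25 without treated tumor 3. Col5a2, which lies 24614 bases from Col3a1 on the opposite strand, had between 213.6 and 348.6 CPM in saline tumors and 371.4, 256.4, 550.5 and 203.7 CPM in treated tumors. Its log2 fold change was 0.34 (edgeR FDR 0.556), and 0.02 without treated tumor 3. Col5a3 had between 56.69 and 99.5 CPM in saline tumors and 77.77, 82.27, 178 and 59.47 CPM in treated tumors. In all 3 type V genes treated tumor 3 was the highest of the 8, and the groups overlapped. Col5a3 had a log2 fold change of 0.39 (edgeR FDR 0.528), and of -0.06 without treated tumor 3. Col11a1 was near 1 CPM, with 16 to 138 counts per tumor, and its log2 fold change of 0.42 (edgeR FDR 0.751) became -0.42 without treated tumor 3. The remaining fibrillar genes Col2a1, Col11a2, Col24a1 and Col27a1 had log2 fold changes between 0.56 and 0.90, with FDR from 0.371 to 0.492. Col2a1, the cartilage collagen, had only 71 counts over the 8 tumors.

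The sum of fibroblast markers put the tumors in nearly the same order. All 8 markers were found, and their summed level was 293.7, 311.5, 376.2 and 406.6 CPM in saline tumors 1 to 4. For treated tumors 1 to 4 it was 376.4, 344.1, 433.7 and 290.4 CPM. Treated tumor 4 was lowest and treated tumor 3 highest for both the fibroblast sum and the fibrillar sum, and the ranks of the 8 tumors differed only in the order of saline tumor 3 and treated tumor 1. Thy1 was the most abundant marker, with 33.4% of the sum. Single markers did not all follow this order, and treated tumor 3 was highest of the 8 for Pdgfrb, Thy1 and Fap only. The fitted level was higher for 4 markers and lower for 4, with a median log2 fold change of -0.0551. With edgeR 0 of the 8 passed, while at an unadjusted p under 0.05 Fap was higher and Pdgfra lower, named after their values were seen. The shares of all tested genes at that p were 9.13% higher and 9.79% lower. Dcn, Lum and Fap of this list also stand in the processing lists below. The part of fibroblast content in the fibrillar levels was not tested.

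Col4a1 and Col4a2 encode the chains of the common type IV network of basement membranes, with Col4a1 in 2 copies and Col4a2 in 1. The genes lie head to head on chromosome 8 of GRCm38, Col4a1 (ENSMUSG00000031502) on the minus strand from 11198423 to 11312826 and Col4a2 (ENSMUSG00000031503) on the plus strand from 11312805 to 11449287. Their annotated exons overlap by 22 bases on opposite strands, and the strandedness of the libraries is not given. The share of reads from the overlap that went to each gene was not tested, but it makes up 0.295% of the length of Col4a1 and 0.332% of the length of Col4a2.

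RefSeq promoter windows of the build GRCm38.p6 hold 250 bases before and 50 after the start of a gene, and 35 of the 44 collagen genes had one. The windows of Col4a1 (chr8:11312777-11313076, minus strand) and Col4a2 (chr8:11312555-11312854, plus strand) are shown because the genes share 1 promoter region and their levels moved together across tumors. Capitals mark GC boxes (GGGCGG or CCGCCC) and CCAAT boxes (CCAAT or ATTGG), both strands being searched, along with TATA boxes (TATAAA or TTTATA). No 2 matches in the windows shown overlap, and a match describes letters only.
Col4a1: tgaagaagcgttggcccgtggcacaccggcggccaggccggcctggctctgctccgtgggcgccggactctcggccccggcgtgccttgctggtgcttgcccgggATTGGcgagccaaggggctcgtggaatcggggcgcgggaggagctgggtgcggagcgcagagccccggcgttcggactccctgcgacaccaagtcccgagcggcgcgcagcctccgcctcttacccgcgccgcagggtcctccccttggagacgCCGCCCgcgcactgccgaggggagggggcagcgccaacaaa
Col4a2: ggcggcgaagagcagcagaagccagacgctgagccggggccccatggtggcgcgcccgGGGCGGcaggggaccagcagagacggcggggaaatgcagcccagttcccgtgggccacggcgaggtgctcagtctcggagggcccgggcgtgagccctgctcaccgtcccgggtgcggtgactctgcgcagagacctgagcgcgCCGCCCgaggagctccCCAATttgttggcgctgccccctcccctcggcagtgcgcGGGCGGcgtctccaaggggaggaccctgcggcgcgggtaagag
The windows share 78 bases, in which the same GC box, at chr8:11312812-11312817, reads CCGCCC in the Col4a1 window and GGGCGG in the Col4a2 window. The Col4a1 window held 1 GC box and 1 CCAAT box, the Col4a2 window 3 GC boxes and 1 CCAAT box, and neither held a TATA box. Their GC content was 74% and 73.7%. Of the 32851 windows of the same length in the table, 35.7% held a GC box, 37.4% a CCAAT box and 13.6% a TATA box. Of the 38 windows of collagen genes, since some genes have more than 1, 23 held a GC box, 13 a CCAAT box and 5 a TATA box.

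Col4a1 was at 351.7, 465.4, 408.8 and 386.2 CPM in saline tumors 1 to 4. It was at 563.1, 573.9, 781.5 and 565.4 CPM in treated tumors 1 to 4. Every treated tumor lay above every saline tumor, and treated tumor 3 stood above the other 3 of its group, which were close together. The means were 403 ± 47.75 CPM (SD, n = 4) and 621 ± 107.1 CPM (SD, n = 4). The log2 fold change was 0.62 (SE 0.148), with a 95% interval from 0.30 to 0.95, and the edgeR FDR of 0.0606 missed the threshold. Over 18 alternatives the log2 fold change lay between 0.49 and 0.74 and the FDR between 0.00279 and 0.185. Col4a1 passed in 2 of them, DESeq2 (0.62, FDR 0.00279) and the correction for gene length (0.71, FDR 0.0451).

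Col4a2 was at 227.1, 262, 239.9 and 205.7 CPM in saline tumors 1 to 4. It was at 281.1, 344.7, 435.4 and 327.2 CPM in treated tumors 1 to 4. The groups did not overlap, and the distance between saline tumor 2 and treated tumor 1 was small. Its fitted log2 fold change was 0.57 (SE 0.145), just under the fold change limit, and the edgeR FDR was 0.0724. Without treated tumor 1 it was 0.66 with an FDR of 0.0493, which passes. Over its alternatives the FDR lay between 0.00976 and 0.222. Counts on Col4a1 were between 1.55 and 1.88 times those on Col4a2 in saline tumors and between 1.67 and 2 times in treated tumors. The mean ratios were 1.73 ± 0.138 (SD, n = 4) and 1.80 ± 0.147 (SD, n = 4), a difference within the spread between tumors.

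**Figure D4:**
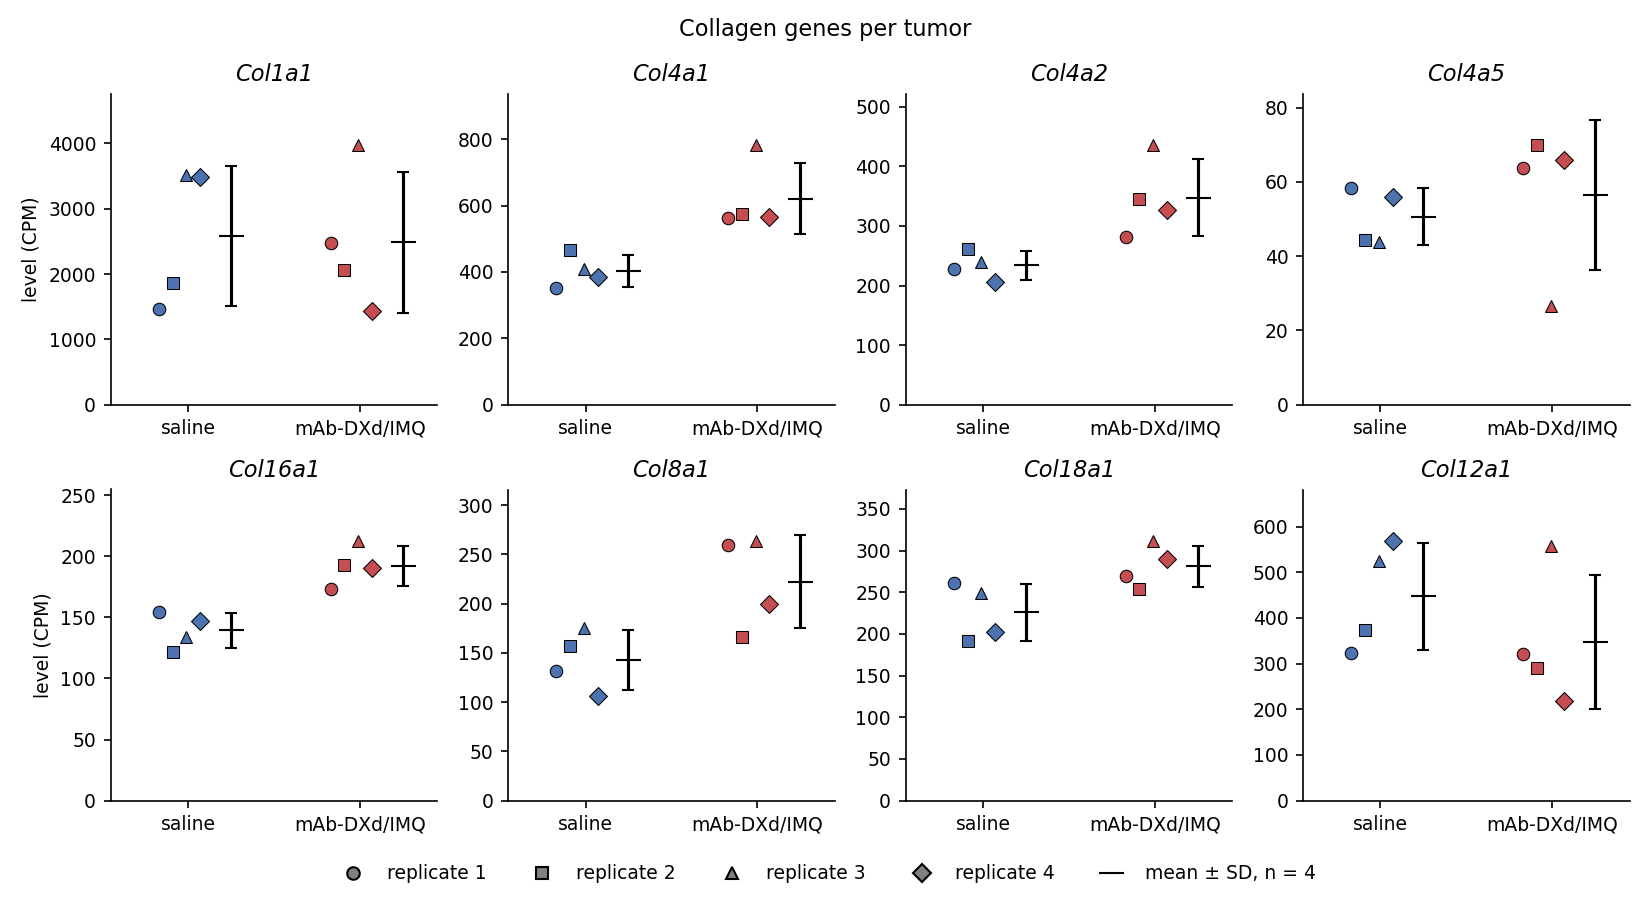
CPM per tumor (y axis, a separate scale for each gene) of 8 collagen genes in saline and treated tumors (x axis), with 1 symbol per replicate and the mean with its SD (n = 4). The groups do not overlap for Col4a1, Col4a2 and Col16a1, and they overlap for Col1a1, Col4a5, Col8a1, Col18a1 and Col12a1.

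Col4a5 (ENSMUSG00000031274) and Col4a6 (ENSMUSG00000031273) encode minor type IV chains and lie head to head on the X chromosome. Their windows, at chrX:141475169-141475468 on the plus strand and chrX:141474027-141474326 on the minus strand, are shown as the second such pair, with capitals as before.
Col4a5: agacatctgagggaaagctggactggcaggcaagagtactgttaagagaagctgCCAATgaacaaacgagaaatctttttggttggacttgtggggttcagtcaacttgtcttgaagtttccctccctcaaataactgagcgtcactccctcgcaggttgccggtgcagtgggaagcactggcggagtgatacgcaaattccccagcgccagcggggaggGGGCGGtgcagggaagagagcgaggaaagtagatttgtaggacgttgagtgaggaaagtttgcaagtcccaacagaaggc
Col4a6: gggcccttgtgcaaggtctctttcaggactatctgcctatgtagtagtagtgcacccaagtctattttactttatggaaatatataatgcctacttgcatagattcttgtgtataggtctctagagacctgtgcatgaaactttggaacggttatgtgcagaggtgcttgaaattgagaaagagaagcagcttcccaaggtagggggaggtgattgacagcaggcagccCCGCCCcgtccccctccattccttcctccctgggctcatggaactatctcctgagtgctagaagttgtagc
These windows do not overlap and have 842 bases between them. The Col4a5 window held 1 GC box and 1 CCAAT box at a GC content of 52.7%, and the Col4a6 window 1 GC box at 48.3%. Col4a5 had 58.45, 44.28, 43.85 and 56.04 CPM in saline tumors 1 to 4 and 63.82, 69.85, 26.45 and 65.97 CPM in treated tumors 1 to 4. Col4a6 had 5.86, 6.36, 3.66 and 6.58 CPM and 4.85, 6.60, 1.09 and 5.93 CPM in the same order. Treated tumor 3, the highest of its group for Col4a1 and Col4a2, was the lowest of all 8 tumors for both of these genes. The log2 fold change of Col4a5 was 0.16 (edgeR FDR 0.787), and 0.39 without treated tumor 3. That of Col4a6 was -0.28 (edgeR FDR 0.775), and 0.04 without treated tumor 3. Counts on Col4a5 were 24.2 times those on Col4a6 in that tumor and between 6.96 and 13.2 times in the other 7.

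Col4a3 and Col4a4 encode the chains that join Col4a5 in the basement membrane of the kidney filter. Col4a4 had between 0.158 and 0.644 CPM in saline tumors and between 0.169 and 0.535 CPM in treated tumors, and its log2 fold change was -0.32 (edgeR FDR 0.807). With 38 counts, Col4a3 was removed by the filter on low counts in the main comparison. Of its exons, 563 bases overlap those of C430014B12Rik on the other strand.

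The summed level of the 6 type IV genes was 90.93, 109.4, 98.04 and 92.07 CPM per kilobase in saline tumors 1 to 4. For treated tumors 1 to 4 it was 128, 140.2, 174.6 and 135.8 CPM per kilobase. The groups did not overlap, and the spread was small beside that of the fibrillar sum. This sum largely restates Col4a1 and Col4a2, which held 55.2% and 36.2% of it in saline tumors and 57.4% and 36.1% in treated tumors, while the groups overlapped for the other 4 genes. The means were 97.6 ± 8.44 (SD, n = 4) and 144.7 ± 20.6 CPM per kilobase (SD, n = 4), a ratio of 1.48, and leaving out single tumors gave ratios between 1.38 and 1.54. The ratio was 1.48 with either other length scale. Type IV genes made up 9.79% of the summed collagen level per kilobase in saline tumors and 13.1% in treated tumors, while fibrillar genes made up 61.8% and 57.5%. In single tumors the type IV share ran from 6.86% to 12.6% in saline and from 10.1% to 17% in treated tumors, so the shares overlapped.

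Pericyte, smooth muscle and endothelial markers were compared through 2 lists. The 7 pericyte and smooth muscle markers, all found, summed to 86.53, 123.9, 148.5 and 131.7 CPM in saline tumors 1 to 4. For treated tumors 1 to 4 the sum was 244.1, 155.3, 248.8 and 128.6 CPM. Treated tumors 1 and 3 were far above the rest, treated tumor 4 lay within the saline range, and Acta2 held 55% of the sum. Acta2 alone was at 138.2 and 158.2 CPM in treated tumors 1 and 3, against 52.65 to 91.86 CPM in saline tumors. The pericyte marker Rgs5 was at 58.85 and 20.25 CPM in those 2 treated tumors, against 7.83 to 35.09 CPM in saline tumors. The 6 endothelial markers, all found, summed to 84.58, 212.4, 149.8 and 159.7 CPM in saline tumors and 210.3, 186.3, 210.8 and 171.7 CPM in treated tumors, with Pecam1 at 38.2% of the sum. All 4 treated tumors lay within the saline range of this sum, since saline tumor 2 had the highest of the 8. The type IV sum of saline tumor 2 was 109.4 CPM per kilobase, against 128 to 174.6 in treated tumors. Saline tumor 1 was the lowest of the 8 for both marker sums and for Col4a1, while Col4a2 was lowest in saline tumor 4. All 7 pericyte and smooth muscle markers had a higher fitted level in treated tumors (median log2 fold change 0.86), as had all 6 endothelial markers (median 0.49). With edgeR 0 of these 13 passed. At an unadjusted p under 0.05, Kcnj8, Cnn1, Notch3 and Emcn were higher and 0 lower, named after their values were seen. The shares of all tested genes at that p were 9.13% higher and 9.79% lower, and 52.6% of all tested genes had a higher fitted level. The part of pericytes, smooth muscle and endothelial cells in the type IV levels was not tested.

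The summed level of the 27 other collagens was 257.5, 252.6, 337.4 and 325.5 CPM per kilobase in saline tumors 1 to 4. For treated tumors 1 to 4 it was 295.5, 289.5, 489.9 and 275.2 CPM per kilobase. Only treated tumor 3 lay above the saline range. The means were 293.2 ± 44.4 (SD, n = 4) and 337.5 ± 101.9 CPM per kilobase (SD, n = 4), a ratio of 1.15, and 0.977 was the lowest ratio on leaving out 1 tumor, from treated tumor 3. The ratio was 1.16 per kilobase of the longest transcript and 1.14 with no length.

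Type VI collagen forms beaded filaments around cells, and its chains Col6a1, Col6a2 and Col6a3 assemble together. Col6a1 (ENSMUSG00000001119) had 296.1, 344.3, 423.3 and 470.1 CPM in saline tumors 1 to 4 and 348.3, 316.9, 560.2 and 304.4 CPM in treated tumors 1 to 4. Col6a2 had between 111.8 and 258.6 CPM in saline tumors and 204.7, 158.5, 338.8 and 137.7 CPM in treated tumors. Col6a3 had between 180 and 383.9 CPM in saline tumors and 248.5, 236, 611.5 and 186.7 CPM in treated tumors. For all 3 genes treated tumor 3 was the highest of the 8 and the groups overlapped. Their log2 fold changes were 0.00 for Col6a1, 0.11 for Col6a2 and 0.21 for Col6a3, with edgeR FDR from 0.806 to 0.995. The sign of Col6a1 depended on the scaling, with 0.04 for library size alone. Col6a1 was also above 0 without saline tumor 3 (0.04), saline tumor 4 (0.11), treated tumor 1 (0.04), treated tumor 2 (0.07) or treated tumor 4 (0.10). Col6a2 was below 0 without saline tumor 1 (-0.09) or treated tumor 3 (-0.22), and Col6a3 without treated tumor 3 (-0.31). Col6a4, Col6a5 and Col6a6 each had 250 or fewer counts over the 8 tumors and log2 fold changes between -0.69 and 0.27.

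Collagens of the FACIT class sit on the surface of fibrils and link them to other matrix. Col16a1 (ENSMUSG00000040690, chromosome 4) is one of them and was singled out after its values were seen. It had 154.6, 121.7, 134.3 and 146.7 CPM in saline tumors 1 to 4. It had 173.1, 192.7, 212.2 and 190.3 CPM in treated tumors 1 to 4. The groups did not overlap, and the spread within each was small. With edgeR its log2 fold change was 0.46 (SE 0.113, FDR 0.0662), under the fold change limit, and over 18 alternatives it lay between 0.40 and 0.55 with FDR from 0.00853 to 0.265.

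Col12a1 (ENSMUSG00000032332) encodes the FACIT collagen that binds type I fibrils under tension. Its levels were 324, 373.6, 524.6 and 567.7 CPM in saline tumors 1 to 4 and 320.2, 291.3, 556.9 and 218.9 CPM in treated tumors 1 to 4. Of the 4 treated tumors, 3 lay under the whole saline range and treated tumor 3 lay inside it. The estimate was a log2 fold change of -0.37 (SE 0.274, edgeR FDR 0.504), and it was below 0 in each of 18 alternatives, between -0.69 and -0.19. Of the summed level per kilobase of other collagens, Col12a1 made up 9.91 ± 1.32% in saline tumors (SD, n = 4), and 6.6 ± 0.985% in treated tumors (SD, n = 4). Col14a1, a related FACIT chain, had 8.31, 39.83, 23.95 and 23.82 CPM in saline tumors and 28.92, 20.51, 26.25 and 17.09 CPM in treated tumors. Saline tumor 1 was the lowest and saline tumor 2 the highest of the 8. The log2 fold change of Col14a1 was -0.05 (edgeR FDR 0.964), and it was 0.31 without saline tumor 2, 0.01 without treated tumor 2 and 0.08 without treated tumor 4. For Col9a3 and Col20a1, with 1205 and 1943 counts over the 8 tumors, log2 fold changes were 0.11 and 0.12. Col20a1 shares 79 bases of exon on the same strand with 9230112E08Rik, a gene with 104% of its counts, so reads there cannot be assigned to either by position alone.

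Col8a1 (ENSMUSG00000068196, chromosome 16) encodes a short-chain collagen of the layer under vessel lining and of the eye. It had 131.3, 157.3, 175.5 and 106.3 CPM in saline tumors 1 to 4. It had 259.5, 166.5, 263.3 and 199.2 CPM in treated tumors 1 to 4. Only treated tumor 2 lay inside the saline range, and treated tumors 1 and 3 were highest. The log2 fold change was 0.64 (SE 0.187, edgeR FDR 0.105). Over its alternatives the log2 fold change lay between 0.53 and 0.80 and the FDR between 0.0263 and 0.262, and it passed with DESeq2 (FDR 0.0263). Col8a2 and Col10a1, the other short-chain members, had log2 fold changes of 0.49 and 0.48 at 369 and 133 counts over the 8 tumors. Of the 62 counts on Col10a1 in saline tumors, 49 came from saline tumor 3.

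Col18a1 and Col15a1 encode multiplexins, basement membrane collagens that carry endostatin-like ends. Col18a1 (ENSMUSG00000001435) had 260.9, 191.3, 249.1 and 201.8 CPM in saline tumors 1 to 4 and 270, 254.4, 311.1 and 290.4 CPM in treated tumors 1 to 4. The groups overlapped only between saline tumor 1 and treated tumor 2. Its log2 fold change was 0.32 (SE 0.131, edgeR FDR 0.223). Col15a1 had between 58.12 and 81.12 CPM in saline tumors and 92.76, 62.85, 111.2 and 58.18 CPM in treated tumors. Treated tumors 1 and 3 were above the saline range and the others inside it, and the log2 fold change was 0.24 (edgeR FDR 0.568), between 0.0513 without treated tumor 3 and 0.377 without treated tumor 4.

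Col7a1 (ENSMUSG00000025650, chromosome 9) encodes the anchoring fibrils that tie the epidermal basement membrane to the dermis. It had 476, 287.2, 481.3 and 422.9 CPM in saline tumors 1 to 4 and 316.4, 541.5, 1007 and 499 CPM in treated tumors 1 to 4. Treated tumor 3 was far above every other tumor, and saline tumor 2 and treated tumor 1 were lowest. Its fitted log2 fold change was 0.50 (SE 0.303, edgeR FDR 0.401), and 0.12 without treated tumor 3.

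Among the transmembrane collagens, Col17a1 (ENSMUSG00000025064) is a part of the attachment plaques of basal skin cells. It had 5.92, 1.602, 5.75 and 2.08 CPM in saline tumors 1 to 4 and 0.495, 22.29, 1.55 and 2.31 CPM in treated tumors 1 to 4. Treated tumor 2 alone was high. The log2 fold change of 0.80 (SE 0.937, edgeR FDR 0.693) became -1.41 without that tumor. The 7 epidermis markers, all found, summed to 202.2, 32.36, 146.1 and 98.59 CPM in saline tumors 1 to 4 and to 214.6, 500.4, 222.8 and 100.3 CPM in treated tumors 1 to 4. Treated tumor 2 was highest for this list too, but Krt14 held 82.5% of the sum. In treated tumor 1, Krt14 was at 207.9 CPM while the basal skin marker Krt5 was at 0.2063 CPM and Krt1 and Flg at 0. Krt5 was at 112.2 CPM in treated tumor 2. In saline tumors 1 to 4 it was at 22.14, 0, 6.807 and 0.117 CPM. Krt1, Flg and Dsg1a, which were not tested, were at 19.55, 3.233 and 7.473 CPM in treated tumor 2. In saline tumor 1 they were at 7.015, 1.723 and 2.068 CPM, and in every other tumor at 0.1238 CPM or less. Saline tumor 1 also had the highest Col17a1 level of the saline tumors, just above saline tumor 3. Of the 4 tested markers all 4 had a higher fitted level in treated tumors, but with edgeR 0 passed and 0 had an unadjusted p under 0.05. The part of skin in the Col17a1 level was not tested.

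Col13a1, a transmembrane collagen of cell contacts, was also singled out after its values were seen. It had 14, 6, 44 and 29 counts in saline tumors 1 to 4 and 85, 52, 105 and 12 counts in treated tumors 1 to 4. Treated tumor 4 lay inside the saline range and the other 3 above it. With edgeR its log2 fold change was 1.74 (SE 0.622, FDR 0.167). Col23a1 had 2.01, 2.44, 6.31 and 6.80 CPM in saline tumors and 1.34, 3.73, 5.72 and 1.49 CPM in treated tumors, with a log2 fold change of -0.52 (edgeR FDR 0.641) and groups that overlapped. It was -1.01 without treated tumor 3 and -0.22 without saline tumor 4. Col25a1 had 121 counts over the 8 tumors and a log2 fold change of -0.875 (edgeR FDR 0.621), the lowest of the 38 tested collagens.

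Col28a1 (ENSMUSG00000068794, chromosome 6) encodes a collagen known from peripheral nerve. It had 26, 72, 51 and 49 counts in saline tumors 1 to 4 and 187, 112, 50 and 115 counts in treated tumors 1 to 4. In CPM these were 0.527, 1.63, 0.914 and 0.717 against 3.86, 2.40, 1.09 and 3.23. Treated tumor 3, high for most collagens, was the lowest of its group here and lay inside the saline range. The estimate was a log2 fold change of 1.49 (SE 0.45, edgeR FDR 0.115), and it passed with DESeq2 at an FDR of 0.0203, the lowest of a range over alternatives up to 0.279. The part of nerve in the Col28a1 level was not tested.

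Other host tissues were checked through their markers, all of which were found. Skeletal muscle markers summed to 500.2, 45.68, 400.7 and 220.8 CPM in saline tumors 1 to 4 and to 412.5, 95.72, 221.7 and 302.8 CPM in treated tumors 1 to 4, with Acta1 at 34.9% of the sum. Saline tumor 2 and treated tumor 2 were low. Adipocyte markers summed to 4.24, 1.35, 2.31 and 3.77 CPM against 0.990, 2.66, 1.66 and 2.00 CPM, with Pparg at 41.8% of the sum and Adipoq, Plin1 and Cidec at 0 in saline tumor 2. Cartilage markers summed to 94.68, 50.1, 78.12 and 70.63 CPM against 47.22, 55.63, 35.91 and 50.25 CPM, of which Sox9 held 98.1%. The defining cartilage gene Acan was at 0 in 7 of the 8 tumors. Bone markers summed to 118.4, 150.5, 147.9 and 184.5 CPM against 159.6, 159.8, 114.1 and 167.2 CPM, with Dmp1 at 49.1% of the sum. Leukocyte markers summed to 231.5, 451.4, 305.3 and 362.7 CPM against 274.6, 254.7, 351.8 and 246.9 CPM, with Ptprc at 47.6% of the sum. None of these 5 lists separated the groups, and with edgeR 0 of their genes passed. The fitted level was lower in treated tumors for all 5 leukocyte markers (median log2 fold change -0.439), all 4 tested adipocyte markers (median -0.676) and 4 of the 6 skeletal muscle markers, and for 1 of 2 tested cartilage markers and 1 of 3 tested bone markers. At an unadjusted p under 0.05, Ibsp was higher and Sox9, Runx2 and Cd3e were lower, named after their values were seen. The shares of all tested genes at that p were 9.13% higher and 9.79% lower. Of the 5 tumor epithelium markers 0 had an unadjusted p under 0.05. The part of these tissues in the collagen levels was not tested.

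The type I and type III genes moved together across tumors, and the windows of Col1a2 (chr6:4505368-4505667, plus strand) and Col3a1 (chr1:45311288-45311587, plus strand) are shown for comparison with the type IV pair, with capitals for the same motifs.
Col1a2: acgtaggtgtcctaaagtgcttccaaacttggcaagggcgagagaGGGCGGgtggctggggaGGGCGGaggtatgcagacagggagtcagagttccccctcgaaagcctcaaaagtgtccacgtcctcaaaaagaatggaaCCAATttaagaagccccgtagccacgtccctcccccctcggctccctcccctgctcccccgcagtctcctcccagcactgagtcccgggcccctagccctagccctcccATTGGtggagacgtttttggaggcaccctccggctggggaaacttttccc
Col3a1: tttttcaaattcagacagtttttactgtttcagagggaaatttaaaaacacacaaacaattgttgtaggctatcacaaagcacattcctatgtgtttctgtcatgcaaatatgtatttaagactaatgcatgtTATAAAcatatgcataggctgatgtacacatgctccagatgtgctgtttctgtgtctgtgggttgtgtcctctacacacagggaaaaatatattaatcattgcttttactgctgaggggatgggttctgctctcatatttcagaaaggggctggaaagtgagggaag
The Col1a2 window held 2 GC boxes and 2 CCAAT boxes at a GC content of 61%. The Col3a1 window held 1 TATA box and neither other motif at 37.7%. The table had no entry for Col1a1, Col2a1, Col4a3, Col5a2, Col9a3, Col12a1, Col14a1, Col22a1 and Col26a1.

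Gene length was considered because collagen genes are long and log2 fold changes varied with length. The median length was 7542.5 bases for the 38 tested collagens and 3516 bases for all tested genes. Across the 18511 genes, which are not independent replicates, Spearman's rho between log2 fold change and length was -0.21. The median log2 fold change of all genes was 0.15 under 1 kilobase and -0.13 over 8 kilobases. In the bin from 4 to 8 kilobases it was -0.03 for all genes and 0.42 for 20 collagens, and over 8 kilobases it was -0.13 for all genes and 0.12 for 16 collagens. With a length trend fitted in each tumor and removed, rho was -0.03. The collagen median was then 0.35 with 31 of 38 genes higher, against 0.03 for all genes. Under this correction 1 collagen passed, Col4a1, among 117 of all tested genes or 0.632%. Col4a1 then had a log2 fold change of 0.713, against 0.624 in the main comparison. With GC content corrected as well it was 0.677 with an FDR of 0.0525, within the range of 0.00279 to 0.185 over its alternatives, and 0 collagens passed. The collagen median was thus 0.26 without a correction, 0.35 with length and 0.33 with length and GC content. Without treated tumor 3 and without a correction it was 0.00649.

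**Figure D5:**
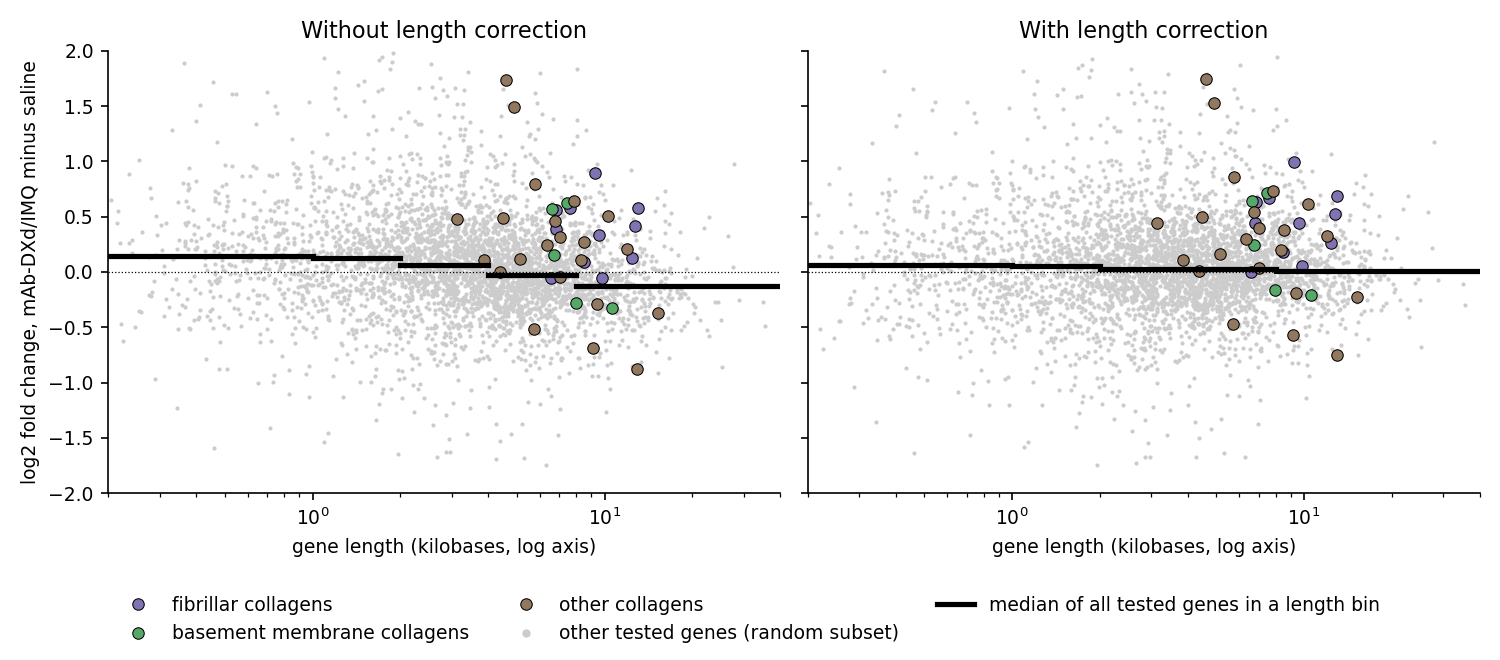
Log2 fold change (mAb-DXd/IMQ minus saline, y axis, shown from -2 to 2) against gene length in kilobases (x axis, log scale) without and with the length correction, for the tested collagens by class, a random subset of other genes in grey, and the median of all tested genes in each length bin as black bars. The bars run from 0.15 to -0.13 without the correction and stay between 0.00 and 0.06 with it, while the 20 collagens of 4 to 8 kilobases have medians of 0.42 and 0.47.

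The other genes of the collagen pathway were taken from 8 lists with 87 genes, all found, of which 84 were tested. With edgeR 0 passed, while DESeq2 passed 5, Serpinh1, Timp1, Fap, Pdgfb and Loxl4, against 4.25% of all tested genes. At an unadjusted p under 0.05, 13 were higher and 2 lower, Loxl4 and Timp3, against 9.13% and 9.79% of all tested genes. The fitted level was higher for 57 and lower for 27, with a median log2 fold change of 0.14, and of all tested genes 52.6% were higher. The groups did not overlap for 7 higher genes and for 1 lower gene, against 5.97% and 7.1% of all tested genes. Without saline tumor 1, 1 of 85 genes passed, Lair1, against 1.08% of all tested genes. Genes named here that are not in the fixed selection were named after their values were seen.

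Genes that fold and modify collagen chains in the endoplasmic reticulum were higher for 20 of 21, with a median of 0.16. Serpinh1 encodes the chaperone HSP47, which binds procollagen. It had 274.4, 335.7, 419.3 and 344.4 CPM in saline tumors 1 to 4. It had 661.1, 459.7, 599.1 and 428.3 CPM in treated tumors 1 to 4. Every treated tumor lay above every saline tumor, with saline tumor 3 and treated tumor 4 close together. Its log2 fold change was 0.64 (SE 0.175, edgeR FDR 0.0858), with 0.53 to 0.75 and FDR from 0.0113 to 0.226 over alternatives. The lysyl hydroxylase gene Plod2 had a log2 fold change of 0.33 (edgeR FDR 0.225). The prolyl hydroxylase gene P4ha1 had -0.05 (edgeR FDR 0.901), which was 0.06 without saline tumor 1 and 0.06 without treated tumor 3. P3h1 and Ppib, which act together on prolines of the chain, also had groups that did not overlap, with log2 fold changes of 0.38 and 0.36. Sparc, whose product binds collagen and aids its export, had 604.4, 952.1, 1235 and 1221 CPM in saline tumors and 1810, 1101, 1577 and 849.3 CPM in treated tumors. The groups overlapped, and the log2 fold change was 0.41 (edgeR FDR 0.449), with 0.228 to 0.583 on leaving out 1 tumor.

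Outside the cell, genes for the trimming of procollagen were higher for 5 of 6 tested genes, with a median of 0.16. Bmp1, the protease that removes the C-terminal end, had a log2 fold change of 0.07 (edgeR FDR 0.840), which was -0.01 without saline tumor 2 and -0.01 without treated tumor 3. Genes of the lysyl oxidase family, which cross-link fibrils, were higher for 2 of 5, with a median of -0.16. Lox had -0.16 (edgeR FDR 0.791), which was 0.03 without treated tumor 4, and Loxl2 had 0.36 (edgeR FDR 0.522), with 0.13 to 0.524 on leaving out 1 tumor. Loxl4 had 63.94, 38.59, 49.96 and 40.95 CPM in saline tumors 1 to 4 and 28.07, 32.7, 31.04 and 37.04 CPM in treated tumors 1 to 4. It was the gene of all 8 lists whose lower group did not overlap the other, with a log2 fold change of -0.59 (SE 0.163, edgeR FDR 0.0925). Fibril-bound partners were higher for 6 of 10, with a median of 0.16. Dcn, the proteoglycan that coats type I fibrils, had -0.25 (edgeR FDR 0.646), which was 0.07 without saline tumor 4.

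Basement membrane partners of type IV collagen were higher for 9 of 15, with a median of 0.11. The laminin chain Lamc1 had a log2 fold change of 0.22 (edgeR FDR 0.369). Lamb1 had groups that did not overlap, with 435.9 to 467.2 CPM in saline tumors and 490.5 to 596 CPM in treated tumors, a log2 fold change of 0.22 (edgeR FDR 0.319). Collagen receptors were higher for 4 of 9, with a median of -0.10, and the receptor kinase gene Ddr2 had 0.22 (edgeR FDR 0.468), with 0.121 to 0.337 on leaving out 1 tumor. The receptor gene Lair1 had -0.65 (edgeR FDR 0.269), the lowest of the 84 tested pathway genes. Genes for breakdown were higher for 5 of 10, with a median of 0.11. The membrane collagenase gene Mmp14 had -0.12 (edgeR FDR 0.651), which was -0.0391 without treated tumor 4. Timp1 encodes an inhibitor of many matrix metalloproteinases and had 69.68, 47.1, 59.69 and 59.57 CPM in saline tumors 1 to 4. It had 118.2, 83.26, 75.59 and 88.87 CPM in treated tumors 1 to 4. The groups did not overlap, and treated tumor 1 was highest. Its log2 fold change was 0.63 (SE 0.159, edgeR FDR 0.0706), with 0.48 to 0.72 and FDR from 0.0119 to 0.190 over alternatives. Fap, a fibroblast protease, had 4.74 to 7.58 CPM in saline tumors and 8.29 to 16.03 CPM in treated tumors, a log2 fold change of 0.90 (edgeR FDR 0.0903).

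Genes for inducers of collagen were higher for 6 of 8, with a median of 0.46. Tgfb1, the main inducer of fibrillar collagen, had a log2 fold change of 0.03 (edgeR FDR 0.948), which was -0.06 without saline tumor 1 and -0.04 without treated tumor 3. Ccn2, a matrix gene that TGF-beta induces, had 54.23, 73.7, 86.78 and 55.42 CPM in saline tumors 1 to 4. It had 118.1, 48.2, 262.2 and 77.29 CPM in treated tumors 1 to 4. Treated tumor 3 was far above all others and treated tumor 2 was the lowest of the 8. The log2 fold change was 0.91 (SE 0.418, edgeR FDR 0.271), and 0.27 without treated tumor 3. At an unadjusted p under 0.05, 4 of the 8 inducers were higher, Tgfb2, Pdgfa, Pdgfb and Scx, against 9.13% of all tested genes.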

How the data were processed

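The deposited table gives, for every gene, counts of reads in each tumor without any scaling, and a gene length in bases. RNA was selected with poly-T beads and sequenced at Novogene on an Illumina HiSeq X instrument. The submitters' notes name HISAT2, HISAT, TopHat2 and mm39, without versions, roles, counting program or strandedness. The coordinates in the table match GRCm38: all 44 collagen genes and 53499 of 54409 shared genes have the coordinates of GENCODE M21, and the length equals the union of exons for 42 of the 44.

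The tools were edgeR 4.0.16 with limma 3.58.1 and DESeq2 1.42.0 under R 4.3.3, and matplotlib 3.10.9 under Python 3.11.15. Genes were kept by filterByExpr (minimum count 10, minimum total 15), scaled by TMM and compared by edgeR's quasi-likelihood F-test over all 18511 kept genes without covariates, with Benjamini-Hochberg adjustment. Genes passed at an FDR under 0.05 with a log2 fold change beyond 0.58 in either direction. The SE is an approximation, the coefficient divided by the root of its F statistic. Floors are 3 counts per tumor, and depth per tumor stands in the report. Class sums are CPM divided by gene length and carry no test. The length correction was a spline with 5 degrees of freedom on log2 length in each tumor. Steps were tested on simulated data. Duplicated libraries were checked for, and none was found.

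Collagen members, classes and lists were chosen with earlier results of these data known. The lists were 8 of the collagen pathway and 11 of cell type markers. One of the marker lists is not reported here. Named genes were 21 fixed collagens, the 4 largest and 4 smallest log2 fold changes among the 29 tested collagens with a mean of at least 1 CPM, 14 fixed pathway genes and any pathway or collagen gene past both thresholds. Ccn2 was matched through its older symbol Ctgf. Alternatives covered 2 other scalings, no filter, DESeq2, the fold change limit, gene length, the replicate number, other length scales and leaving out each tumor. Added after seeing the data were length with GC content, edgeR's newer quasi-likelihood method, the longest transcript as length and leaving out replicate 2 of both groups.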

Additional observations from a re-analysis of the deposited data

Results flagged for a closer look

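For each named gene, class sum and marker sum, and for total counts, the tumors of a group were searched for 1 far from the other 3. The gap of the highest or lowest tumor to its neighbour, divided by the whole range of the group, exceeded Dixon's 95% critical value in 10 of 108 groups of 4. Chance gives this in about 1 in 20 groups, or 5.4 of 108. No cause was tested.

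mAb-DXd/IMQ tumor 3 was the distant one in 7 of these 10. It was high for Col5a1 (gap 0.888 of the range, 520.8 CPM against 232.5 to 264.8), Col11a1 (0.833, 3.01 against 0.450 to 0.878 CPM) and Col4a1 (0.951, 781.5 against 563.1 to 573.9 CPM). It was also high for Col6a3 (0.854, 611.5 against 186.7 to 248.5 CPM) and for the summed other collagens (0.906, 489.9 against 275.2 to 295.5 CPM per kilobase). It was low for Col4a5 (0.861, 26.45 against 63.82 to 69.85 CPM) and for the bone markers (0.857, 114.1 against 159.6 to 167.2 CPM).

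mAb-DXd/IMQ tumor 2 was high for Col17a1 (0.917, 22.29 against 0.495 to 2.31 CPM). mAb-DXd/IMQ tumor 4 was low for Dcn (0.876, 30.33 against 43.03 to 44.82 CPM). Among saline tumors, tumor 1 was high for Ddr2 (0.928, 207 against 150.2 to 154.3 CPM).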

How the results depend on the processing

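Each of the 39 named genes was recomputed under 18 alternatives, of which 8 left out 1 tumor. For 21 the direction was the same throughout and for 18 it reversed at least once, none of which passed in the main comparison. The number of collagen genes passing was 0, with 3 by DESeq2, 1 with the length correction and 0 to 1 on leaving out 1 tumor. For pathway genes it was 0, with 5 by DESeq2 and 0 to 1 on leaving out 1 tumor. Over all genes 197 passed, with 358 without a filter, 787 by DESeq2, 117 with the length correction, 116 with length and GC correction, 29 without replicate 2 of both groups and 10 to 203 on leaving out 1 tumor. The basement membrane median was -0.0209 without replicate 2 of both groups and 0.0383 to 0.39 on leaving out 1 tumor.

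With a replicate block, 14 of all genes passed, and 12 with the block and the length correction. Same-numbered tumors share only a number, and their correlations after removal of group means were -0.17, -0.05, 0.08 and -0.07. The replicate block gave 0.09 for Col14a1 and -0.57 for Col17a1, and with the length correction 0.0313 for Col1a1, 0.11 for Col3a1, 0.175 for Col14a1 and -0.51 for Col17a1.

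Reversed log2 fold changes under the length correction were 0.00404 for Col1a1, 0.0563 for Col3a1, 0.00795 for Col6a1 and 0.0397 for Col14a1. Under length and GC they were 0.037 for Col3a1 and 0.0313 for Col14a1, and by library size 0.0397 for Col6a1. Without replicate 2 of both groups they were -0.0209 for Col4a5, 0.0268 for Col6a1, 0.36 for Col14a1, -1.67 for Col17a1 and -0.0138 for Bmp1. Leaving out 1 tumor gave ranges that crossed 0 for Col1a1 (-0.38 to 0.14), Col1a2 (-0.12 to 0.34), Col3a1 (-0.295 to 0.22), Col5a1 (-0.25 to 0.23), Col5a3 (-0.0573 to 0.57), Col11a1 (-0.42 to 0.88), Col4a6 (-0.51 to 0.0435), Col6a1 (-0.25 to 0.11), Col6a2 (-0.22 to 0.28), Col6a3 (-0.31 to 0.40), Col14a1 (-0.33 to 0.31) and Col17a1 (-1.41 to 1.18). The same held for P4ha1 (-0.165 to 0.0607), Bmp1 (-0.0119 to 0.14), Lox (-0.43 to 0.0304), Dcn (-0.42 to 0.0689) and Tgfb1 (-0.0644 to 0.15). The cause was not tested for any of these. Added after the data were seen were length with GC content, the newer quasi-likelihood method (291 of all genes), the longest transcript and leaving out replicate 2 of both groups. Counts are few for the 9 tested collagens with a mean under 1 CPM.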
